A study of Mus musculus with 6 samples.

Results

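The 45 genes described here encode subunits of Polycomb repressive complex 2 (PRC2, 10 genes), Polycomb repressive complex 1 (PRC1, 15 genes) and the BAF family of SWI/SNF chromatin remodellers (20 genes). The rule names them by gene symbol and uses no measured value, and all 45 were found among the 29267 gene identifiers of the deposited tables. RNA was sequenced from cultured mouse neural stem cells of strain OG2, which carries a GFP reporter of Oct4, at passage 8. The cells had either been differentiated, a state the labels call D2, or were kept as neural stem cells (NSC). Each state had 3 libraries: 1 with naloxone, an opioid receptor antagonist, 1 with the mu opioid receptor agonist DAMGO, and 1 control without either ligand. With 1 library per group there is no replicate, and nothing states that the cultures were separate, so p-values reflect the variation among these 6 libraries alone, which may be technical. The labels give neither the ligand doses nor the differentiation medium.

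PRC2 places the repressive trimethyl mark on histone H3: EZH1 or EZH2 is the methyltransferase, EED reads the mark, SUZ12 is the scaffold and RBBP4 or RBBP7 contacts histones. PRC1 ubiquitinates histone H2A through RING1 or RNF2, paired with 1 of the PCGF proteins, while its CBX proteins read the PRC2 mark and its PHC proteins polymerise. BAF complexes move nucleosomes with the ATPase SMARCA4 (BRG1) or SMARCA2 (BRM), and PBAF is the form built around PBRM1 and ARID2. In the developing mouse brain, EZH2 and BMI1 are known for keeping neural progenitors dividing. Mouse BAF complexes are known to exchange ACTL6A for ACTL6B, SS18 for SS18L1, and PHF10 for DPF1 or DPF3 as progenitors become neurons.

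The libraries held 8417074 to 10218353 counts in D2 and 9112916 to 13561237 in NSC. All 7 astrocyte markers were higher in D2, with a summed level of 4875 to 5123 CPM (counts scaled to a common library total) in D2 libraries and 918 to 958 CPM in NSC libraries. Of 8 neural stem cell markers, 6 were higher and 2 lower in D2, and of 8 neuronal markers tested, 4 were higher and 3 lower. Summed neuronal markers ranged from 1302 to 1441 CPM in D2 and from 1218 to 1274 CPM in NSC. Most of that sum was Map2, at 1033 to 1185 CPM in D2 and 1079 to 1131 CPM in NSC, so it hides the other markers. Tubb3 averaged 103.9 CPM in D2 and 11.9 CPM in NSC, and Dcx 69.4 and 9.40 CPM. Lower in D2 were, among others, Snap25 (1.81 and 3.79 CPM) and Syt1 (21.2 and 26.2 CPM). Microglial markers summed to at most 0.392 CPM in D2 and 0.221 CPM in NSC. All 13 cell division genes were lower in D2, summing to 464 to 532 CPM in D2 and 5479 to 5510 CPM in NSC. Both marker sums move with the state comparison, and their part in the results on the 45 genes was not tested. In bulk RNA, fewer cells of a type and less RNA per cell cannot be told apart. Among the D2 libraries, 6.98% of all genes tested stood at least 1.2-fold higher in both ligand libraries than in the control and 2.94% at least 1.2-fold lower, against 2.95% and 2.57% in NSC.

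Promoter sequences are shown for the PRC2 core gene and the BAF gene with the largest falls, Suz12 and Pbrm1, and for Ezh2, which was added after its values were seen. They are RefSeq sequences of build GRCm38.p6, running from 250 bases before to 50 bases after the transcription start, 5′ to 3′ on the strand of the gene. Suz12 lies at chr11:79992856-79993155 on the plus strand, Ezh2 at chr6:47594981-47595280 on the minus strand and Pbrm1 at chr14:31018888-31019187 on the plus strand. Capitals mark the letters TTTCCCGC or TTTGGCGC, which were searched for together with TTTCGCGC and TTTGCCGC on both strands as letters that E2F factors, regulators of cell division genes, can bind.
Suz12: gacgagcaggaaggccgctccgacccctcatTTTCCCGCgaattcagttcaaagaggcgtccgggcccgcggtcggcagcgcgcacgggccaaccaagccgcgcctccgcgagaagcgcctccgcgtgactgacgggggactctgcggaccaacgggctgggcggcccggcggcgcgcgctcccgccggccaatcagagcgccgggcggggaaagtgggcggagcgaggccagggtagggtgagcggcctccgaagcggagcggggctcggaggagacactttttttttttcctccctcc
Ezh2: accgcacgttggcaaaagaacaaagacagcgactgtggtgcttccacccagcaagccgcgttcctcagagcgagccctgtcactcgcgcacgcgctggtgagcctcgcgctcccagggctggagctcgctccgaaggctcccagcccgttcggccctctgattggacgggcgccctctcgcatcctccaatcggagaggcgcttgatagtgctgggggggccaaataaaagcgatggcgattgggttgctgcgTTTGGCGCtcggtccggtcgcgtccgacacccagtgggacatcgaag
Pbrm1: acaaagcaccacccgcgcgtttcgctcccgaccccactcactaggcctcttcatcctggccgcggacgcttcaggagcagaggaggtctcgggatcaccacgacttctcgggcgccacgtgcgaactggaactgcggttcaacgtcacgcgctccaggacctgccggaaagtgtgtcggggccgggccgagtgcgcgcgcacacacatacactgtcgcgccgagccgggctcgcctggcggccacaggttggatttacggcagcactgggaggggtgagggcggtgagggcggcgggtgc
The letters begin at position -219 relative to the start site in Suz12 and at position 4 in Ezh2, and none of the 4 spellings is in the Pbrm1 window. Among 40 members with a RefSeq promoter, 5 (12.5%) held such letters: Suz12, Ezh2, Phf19, Smarcd1 and Arid1a. Over all 27025 genes with a promoter the share was 2.6%. The 5 genes include 3 that were lower in D2, 1 that was higher and 1, Arid1a, that did not pass the test. The letters TTTGAA or TTCGAA, the core of the cell cycle homology element of late cell cycle promoters, were in 4 of the 40 (10%), namely Suz12, Eed, Mtf2 and Cbx7, against 21.7% of all genes. Both shares over all genes with a promoter include genes that were not tested for expression here, while every member was tested. The sets are thus not matched, and the effect of this on the shares was not tested. A match of letters is a description of the sequence and does not show a bound site.

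Between D2 and NSC, 39 of the 45 subunit genes changed: 17 were higher in D2 and 22 lower (edgeR's quasi-likelihood test, Benjamini-Hochberg adjusted over all genes, threshold 0.05). Across all 13216 genes tested, 79.8% were called in this comparison, 40% higher and 39.8% lower, so the share of subunit genes that changed is near the background. All 45 members passed the filter of a mean of at least 10 counts. A change of at least 2-fold was called for 17 members (37.8%) and for 33.9% of all genes. The median log2 fold change was -0.13 over members and 0.00 over all genes, and the median absolute value was 0.64 over members and 0.68 over all genes. The TPM values of the 3 D2 and the 3 NSC libraries did not overlap for 37 of the 45 members (82.2%), against 79% of all genes, so a lack of overlap in a single gene is common in this comparison. Of the 39 called genes, 38 moved the same way in all 3 ligand conditions, and the exception was Phc1. The calls rest on these same libraries, so such agreement is likely for any called gene. Its share over all genes was not counted. The complexes differed in their counts. PRC2 had 2 genes higher and 7 lower (median log2 fold change -1.36), PRC1 had 6 higher and 7 lower (median -0.13), and BAF had 9 higher and 8 lower (median 0.05). At least 2-fold changes were called for 9 of 10 PRC2 genes, 2 of 15 PRC1 genes and 6 of 20 BAF genes.

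**Figure D1:**
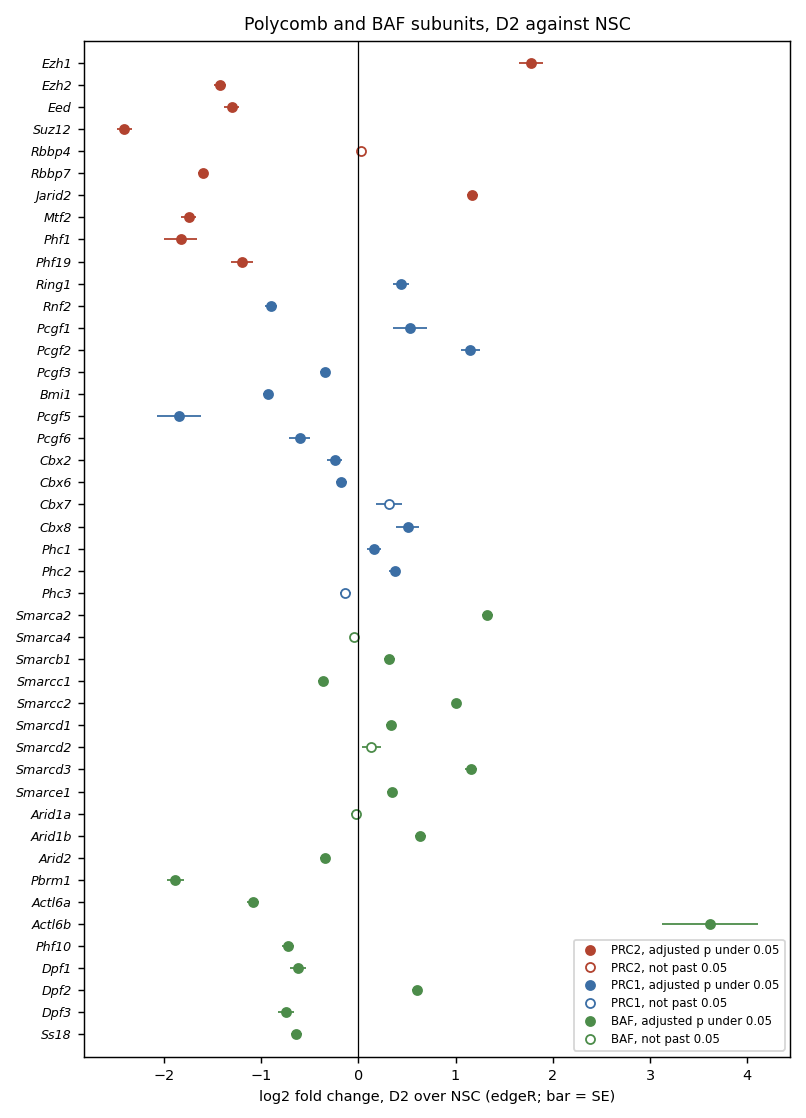
The log2 fold change of counts in D2 over NSC (x axis) is plotted for each of the 45 genes (y axis), with the standard error as a bar. Filled points passed an adjusted p of 0.05 in edgeR and open points did not; most PRC2 genes lie left of 0, with Ezh1 and Jarid2 to the right, and Actl6b is the point farthest right at 3.62.

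The core of PRC2 was lower in D2 in 4 of its 6 genes, while the alternative methyltransferase Ezh1 was higher. Suz12 (ENSMUSG00000017548, chr11:79993106-80034123, plus strand), the scaffold, had 24.2, 17.2 and 13.9 TPM (a level scaled by transcript length and library total) in D2 with naloxone, DAMGO and control, against 85.8, 94.9 and 85.7 TPM in NSC with naloxone, DAMGO and control. All 3 D2 libraries lie far below all 3 NSC libraries, and D2 control is the lowest. Its fall was the largest of the 45 genes (log2 fold change -2.41, SE 0.08, edgeR adjusted p 5.25e-11). Ezh2 (ENSMUSG00000029687, chr6:47530139-47595341, minus strand), the methyltransferase of dividing cells, had 86.4, 81.2 and 78.8 TPM in D2 and 210.1, 218.9 and 224.2 TPM in NSC, in the same order of ligands, as are all sets of 3 values that follow. The groups did not overlap (log2 fold change -1.42, SE 0.06, edgeR adjusted p 5.93e-10). Eed had 25.8, 21.0 and 25.6 TPM in D2 and 58.9, 63.8 and 61.2 TPM in NSC, with a log2 fold change of -1.30 (SE 0.08). No D2 value of Eed reached an NSC value.

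Ezh1, the methyltransferase paralogue known from non-dividing cells, had 12.7, 14.5 and 16.7 TPM in D2 and 4.74, 5.51 and 6.17 TPM in NSC. Its levels were higher in every D2 library (log2 fold change of counts 1.78, SE 0.12, edgeR adjusted p 4.84e-08). On TPM the log2 ratio of the means was 1.41, and the estimated transcript length of the gene also differed between the states. Ezh1 made up 12.8%, 15.1% and 17.5% of the summed EZH TPM in D2, against 2.21%, 2.46% and 2.68% in NSC. Ezh2 was the larger of the pair in every library. The summed EZH level was 95.4 to 99.1 TPM in D2 and 214.8 to 230.4 TPM in NSC.

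The histone-binding pair parted. Rbbp7 had 105.7, 97.9 and 99.8 TPM in D2 and 301.6, 308.2 and 315.7 TPM in NSC (log2 fold change -1.60, SE 0.05), and its paralogue Rbbp4, which also serves other chromatin complexes, had 320.8, 317.9 and 318.5 TPM in D2 and 273.5, 302.9 and 294.9 TPM in NSC. The count test of Rbbp4 did not pass (log2 fold change 0.03, SE 0.04, edgeR adjusted p 0.535), although its TPM ranges do not overlap. On TPM, limma called Rbbp4 higher in D2. Rbbp7 supplied 23.5% to 24.8% of the pair's TPM in D2 and 50.4% to 52.4% in NSC. It shares 174 exon bases with Txlng on the opposite strand, whose log2 fold change was -1.55.

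Accessory subunits, which steer PRC2 to chromatin, also went in opposite directions. Jarid2, a DNA-binding cofactor, had 46.8, 52.9 and 49.1 TPM in D2 and 20.01, 21.4 and 20.3 TPM in NSC and was higher in D2 (log2 fold change 1.17, SE 0.06). The 3 Polycomb-like genes, whose proteins bind CpG-rich DNA and define a form of PRC2 without JARID2, were lower. Mtf2 had 14.8, 14.98 and 11.9 TPM in D2 and 50.6, 54.7 and 48.6 TPM in NSC (log2 fold change -1.75, SE 0.08). Phf1 had 3.43, 3.41 and 4.96 TPM in D2 and 14.7, 14.5 and 12.9 TPM in NSC (log2 fold change -1.83, SE 0.17). Phf19 had 7.90, 5.75 and 6.54 TPM in D2 and 16.9, 16.0 and 14.9 TPM in NSC (log2 fold change -1.20, SE 0.11). None of the 4 genes overlapped between the states. The libraries do not mark strand, and Phf1 shares 1370 exon bases with Cuta on the opposite strand (log2 fold change 0.17), and Mtf2 shares 395 with Tmed5 (-2.42). Jarid2 made up 64.1% to 68.7% of the summed TPM of the 4 genes in D2 and 19.6% to 21.0% in NSC, and Mtf2 16.4% to 20.3% in D2 and 49.5% to 51.4% in NSC. Within the 3 Polycomb-like genes alone, Mtf2 was 50.9% to 62.1% in D2 and 61.6% to 64.2% in NSC, ranges that overlap.

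**Figure D2:**
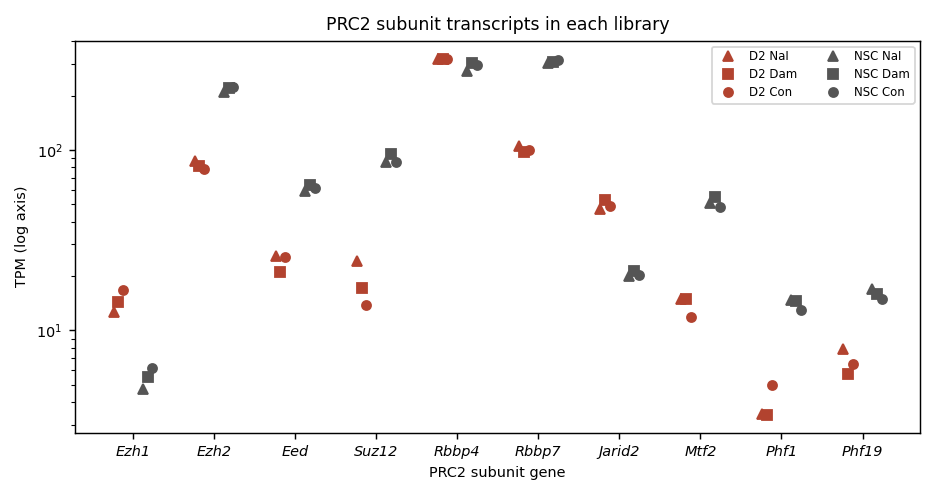
TPM on a log axis for the 10 PRC2 genes in each library, with D2 libraries in red to the left and NSC libraries in grey to the right of each gene, and the ligand given by the symbol. Ezh1 and Jarid2 sit higher in D2, Rbbp4 is nearly level, and the other 7 genes sit lower in D2.

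The catalytic pair of PRC1 changed in opposite directions by less than 2-fold. Ring1 had 36.3, 32.1 and 35.4 TPM in D2 and 26.0, 24.2 and 26.6 TPM in NSC (log2 fold change 0.44, SE 0.09). Rnf2, also called RING1B, had 45.04, 56.0 and 53.8 TPM in D2 and 93.4, 91.3 and 89.4 TPM in NSC (log2 fold change -0.90, SE 0.06). It shares 158 exon bases with Trmt1l on the opposite strand (log2 fold change 0.86). Ring1 was 36.4% to 44.6% of the pair in D2 and 21.0% to 22.9% in NSC, so Rnf2 was the more abundant in all 6 libraries.

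Among the PCGF genes, which set the type of PRC1, 2 were higher and 4 lower in D2. Bmi1, the most abundant, had 98.6, 81.4 and 84.7 TPM in D2 and 185.8, 184.9 and 205.4 TPM in NSC (log2 fold change -0.93, SE 0.05, edgeR adjusted p 8.23e-09). Pcgf2, which like BMI1 forms the canonical complex with CBX and PHC proteins, had 36.7, 35.1 and 41.0 TPM in D2 and 21.5, 19.1 and 18.8 TPM in NSC (log2 fold change 1.15, SE 0.10). Neither gene overlapped between the states. Pcgf5 had 4.58, 2.12 and 6.41 TPM in D2 and 14.4, 15.4 and 16.3 TPM in NSC (log2 fold change -1.84, SE 0.23), from only 25, 13 and 43 counts in D2. Pcgf6 (log2 fold change -0.60, SE 0.11) and Pcgf3 (-0.34, SE 0.05) were also lower. Pcgf1, of the complex with BCOR, had 20.2, 22.6 and 24.2 TPM in D2 and 17.7, 12.2 and 15.3 TPM in NSC (log2 fold change 0.53, SE 0.18, edgeR adjusted p 0.0149). The Pcgf1 call was lost in DESeq2 (adjusted p 0.134) and without D2 DAMGO, D2 control, NSC DAMGO or NSC control (edgeR adjusted p 0.0921, 0.0536, 0.0934 and 0.052). Of the summed PCGF TPM, Bmi1 took 39.0% to 45.9% in D2 and 57.3% to 61.0% in NSC, and Pcgf2 took 17.1% to 18.9% in D2 and 5.58% to 6.63% in NSC.

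The CBX and PHC genes changed little. Cbx8 (log2 fold change 0.51, SE 0.12) was higher in D2, with 21.8, 19.2 and 27.1 TPM in D2 and 21.7, 20.2 and 16.3 TPM in NSC, ranges that overlap, and its call was lost on TPM (limma log2 fold change 0.21, adjusted p 0.269). Cbx2 (-0.24, SE 0.07) and Cbx6 (-0.17, SE 0.06) were lower. Cbx7 did not pass the count test, with 6.44, 8.79 and 9.56 TPM in D2 and 4.86, 6.57 and 4.93 TPM in NSC (edgeR adjusted p 0.0503). It passed as higher in D2 on TPM in limma, without TMM scaling and without the ligand term. Cbx7 shares 100 exon bases with Apobec3 on the opposite strand (log2 fold change -1.24). Phc2 had 246.6, 269.3 and 276.7 TPM in D2 and 209.3, 196.9 and 200.8 TPM in NSC and was higher in D2 (log2 fold change 0.37, SE 0.06). Phc1 was called at the margin (log2 fold change 0.16, SE 0.07, edgeR adjusted p 0.0454), and Phc3 was not (-0.13, SE 0.06, edgeR adjusted p 0.0502). The Cbx2 and Cbx6 calls were lost without D2 naloxone (edgeR adjusted p 0.0652 and 0.17) and without NSC naloxone (0.0572 and 0.139), and with all 6 libraries in DESeq2 (adjusted p 0.0959 and 0.0521); Cbx6 was also lost on TPM (limma adjusted p 0.127). The Phc1 call was lost without D2 DAMGO, D2 control, NSC DAMGO or NSC control (edgeR adjusted p 0.144, 0.337, 0.168 and 0.387), and with all 6 libraries in DESeq2 (adjusted p 0.135) and under RLE size factors in edgeR (0.0527). Phc3 passed without D2 naloxone or NSC naloxone (edgeR adjusted p 0.0304 and 0.0149). With all 6 libraries it also passed under RLE size factors and under the filter of a mean of at least 50 counts.

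Of the BAF ATPases, the Smarca4 count test did not pass and Smarca2 was higher in D2. Smarca4 had 203.4, 213.0 and 212.2 TPM in D2 and 220.3, 207.2 and 213.0 TPM in NSC (log2 fold change -0.04, SE 0.05, edgeR adjusted p 0.451). Smarca2 had 128.0, 122.5 and 117.4 TPM in D2 and 78.2, 74.9 and 79.3 TPM in NSC (log2 fold change of counts 1.33, SE 0.05, edgeR adjusted p 3.71e-10), with a log2 ratio of mean TPM of 0.66. Smarca2 was 35.6% to 38.6% of the pair's TPM in D2 and 26.2% to 27.1% in NSC.

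The core scaffold genes showed an exchange within the SMARCC pair. Smarcc2 had 244.0, 245.5 and 246.4 TPM in D2 and 122.4, 117.3 and 120.2 TPM in NSC, and Smarcc1 had 122.7, 110.3 and 118.4 TPM in D2 and 152.9, 148.9 and 146.9 TPM in NSC. Smarcc2 was higher (log2 fold change 1.01, SE 0.05) and Smarcc1 lower (-0.36, SE 0.05), and the more abundant of the pair was Smarcc2 in D2 and Smarcc1 in NSC in all 3 libraries of each state. Smarcc1 shares 123 exon bases with Dhx30 on the opposite strand (log2 fold change 0.33). Smarcd3 had 172.3, 188.2 and 171.5 TPM in D2 and 80.2, 78.7 and 74.8 TPM in NSC and was higher (log2 fold change 1.16, SE 0.06). It shares 2466 exon bases with Chpf2 on the opposite strand, whose log2 fold change was 0.40. Smarcd1 was also higher by a smaller amount (0.33, SE 0.05), while Smarcd2 did not pass (0.13, SE 0.10, edgeR adjusted p 0.227). The order within the trio differed between states: Smarcd3 led with 49.7% to 53.6% in D2, and Smarcd1 led with 52.1% to 55.8% in NSC. Smarcb1 (log2 fold change 0.32, SE 0.06) and Smarce1 (0.34, SE 0.05) were higher in the count test. For Smarce1 the call was lost on TPM (limma log2 fold change 0.04, adjusted p 0.536).

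The subunits that define forms of BAF moved unequally. Arid1a, the larger part of the ARID genes, had 82.4, 81.8 and 87.0 TPM in D2 and 87.0, 83.2 and 85.8 TPM in NSC (edgeR adjusted p 0.652), while its paralogue Arid1b had 32.0, 29.2 and 30.8 TPM in D2 and 21.6, 19.0 and 18.9 TPM in NSC (log2 fold change 0.64, SE 0.05). Pbrm1 (ENSMUSG00000042323, chr14:31019138-31121592, plus strand), the bromodomain subunit of PBAF, had 35.6, 22.3 and 18.9 TPM in D2 and 88.1, 83.3 and 86.0 TPM in NSC. It fell by more than any other BAF gene (log2 fold change -1.88, SE 0.09, edgeR adjusted p 1.91e-09), and its 3 D2 libraries differed among themselves more than its NSC libraries. Arid2, the other PBAF subunit, was lower by less (log2 fold change -0.35, SE 0.05), with 45.9, 39.7 and 42.4 TPM in D2 and 54.6, 52.9 and 54.9 TPM in NSC. Pbrm1 shares 15 exon bases with Gnl3 on the opposite strand, which was lower in D2 by a log2 fold change of -2.98.

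The genes known for the exchange from progenitor to neuronal BAF in mouse did not all follow it here. Actl6b (ENSMUSG00000029712, chr5:137553517-137569582, plus strand), the neuronal actin-related subunit, had 26, 35 and 43 counts in D2 (4.47, 5.61 and 6.01 TPM) and 8, 1 and 1 counts in NSC (0.84, 0.16 and 0.13 TPM). Summed over libraries this is 104 counts in D2 and 10 in NSC, a ratio of 12.6 after scaling by normalised library size (95% exact interval 6.56 to 26.9, counting error only). In edgeR its log2 fold change came to 3.62 (SE 0.50, adjusted p 2.70e-05), or to 5.18 without D2 naloxone and 5.15 without NSC naloxone. Actl6a, its progenitor counterpart, had 65.7, 74.6 and 71.0 TPM in D2 and 150.5, 149.2 and 148.9 TPM in NSC (log2 fold change -1.08, SE 0.06). It shares 452 exon bases with Mrpl47 on the opposite strand (log2 fold change -0.73). Actl6b still made up only 6.37% to 7.80% of the pair in D2, against 0.0873% to 0.555% in NSC. Ss18 was lower in D2 (log2 fold change -0.64, SE 0.05), with 79.0, 72.6 and 71.2 TPM in D2 and 118.0, 115.3 and 114.7 TPM in NSC, and its neuronal counterpart Ss18l1 was higher (0.54, SE 0.09), at 20.4% to 22.8% of the pair in D2 and 9.58% to 11.8% in NSC.

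Among the PHD finger genes the progenitor subunit Phf10 fell, and so did both neuronal ones. Phf10 had 73.8, 66.1 and 63.0 TPM in D2 and 113.9, 114.8 and 116.6 TPM in NSC (log2 fold change -0.72, SE 0.06), and shares 470 exon bases with 1600012H06Rik on the opposite strand (0.27). Dpf1 had 40.4, 49.1 and 39.9 TPM in D2 and 75.4, 64.7 and 74.2 TPM in NSC (log2 fold change -0.62, SE 0.08). Dpf3 had 30.8, 26.0 and 26.5 TPM in D2 and 74.4, 71.0 and 73.7 TPM in NSC (log2 fold change of counts -0.74, SE 0.08). All 3 genes were lower in every D2 library than in any NSC library. Dpf2, the broadly expressed member, had 141.0, 152.8 and 147.5 TPM in D2 and 93.9, 100.9 and 96.1 TPM in NSC and was higher (log2 fold change 0.61, SE 0.05). Its share of the 4 genes was 49.3% to 53.3% in D2 and 26.3% to 28.7% in NSC, and that of Dpf3 was 8.85% to 10.8% in D2 and 20.2% to 20.8% in NSC.

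**Figure D3:**
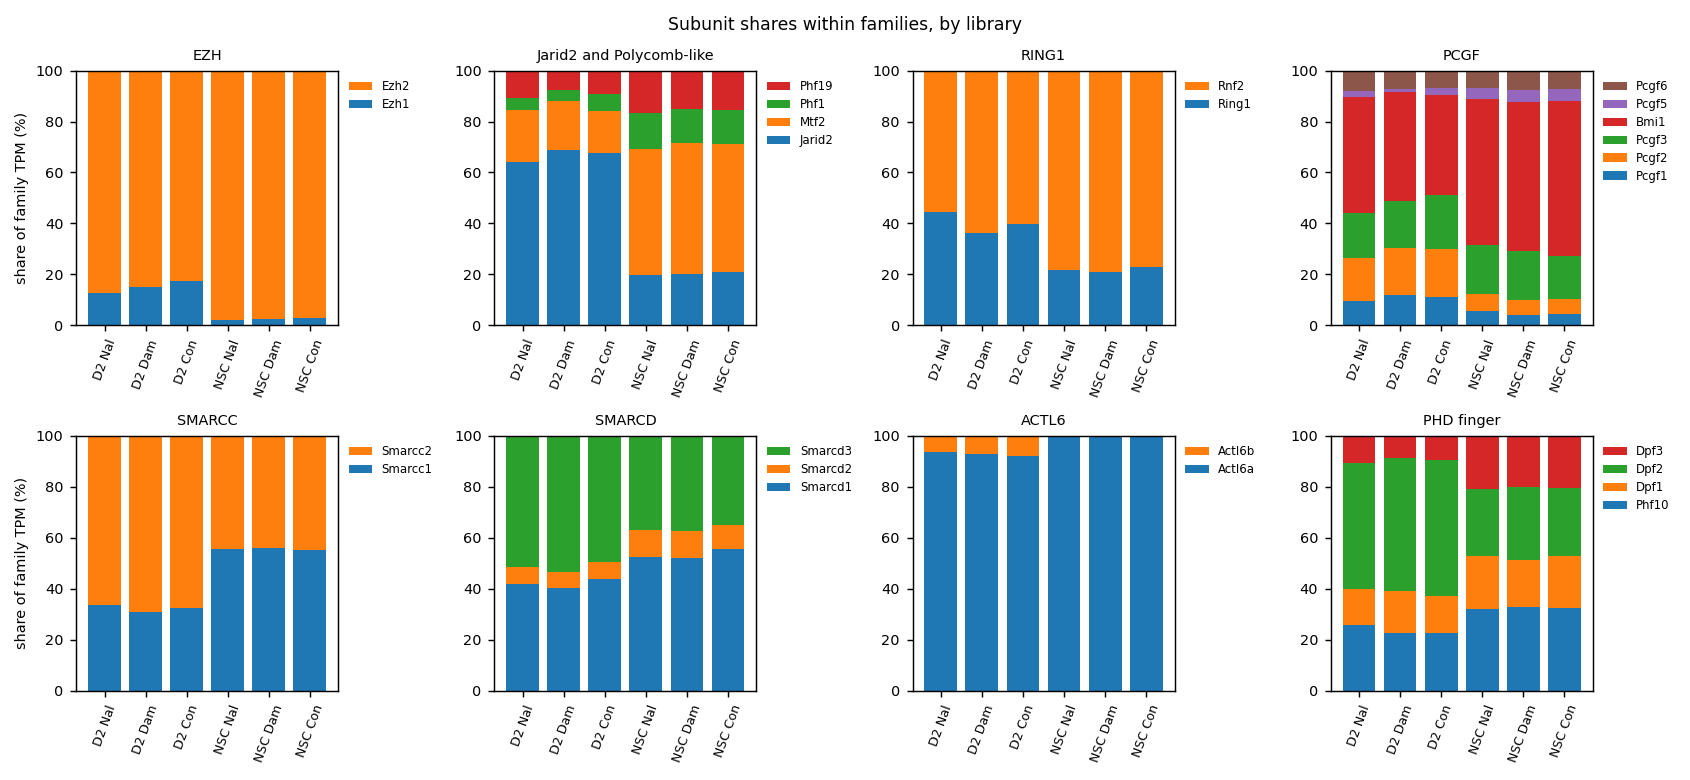
Share of the summed TPM of a family (percent, y axis) that each member takes in each of the 6 libraries, for 8 families, with D2 libraries to the left of NSC libraries. Within each state the 3 bars are alike, and between states the Jarid2, Ring1, Pcgf2, Smarcc2, Smarcd3 and Dpf2 segments are larger in D2 than in NSC.

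To set paralogues side by side, the log2 ratio of TPM was formed for 21 pairs in each library. The D2 and NSC values did not overlap in 18 of the 21 pairs (85.7%), beside 79% of all single genes for TPM. A share of single genes is not a matched background for ratios. Some genes, such as Dpf2 and Cbx2, sit in several pairs, so the pairs are not independent. With 3 libraries against 3, an exact two-sided permutation test over libraries cannot give a p under 0.10, and each of the 18 pairs had that smallest p of 0.1 (adjusted over the 21 pairs, 0.117). No pair can therefore pass 0.05. The ratio of Ezh1 to Ezh2 averaged -2.49 ± 0.26 in D2 and -5.30 ± 0.14 in NSC on the log2 scale (SD, n = 3 each). Actl6b to Actl6a averaged -3.70 ± 0.15 in D2 and -8.61 ± 1.12 in NSC, a difference of 4.91 that becomes 3.32 when 1 TPM rather than 0.1 TPM is added to both genes. Pcgf2 to Bmi1 averaged -1.23 ± 0.19 in D2 and -3.27 ± 0.17 in NSC, and Smarcc2 to Smarcc1 averaged 1.07 ± 0.08 in D2 and -0.32 ± 0.03 in NSC. The Smarcc2 ratio changed sign between the states, as did that of Smarcd3 to Smarcd1, at 0.30 ± 0.11 in D2 and -0.55 ± 0.11 in NSC. A change of sign was also found for Phf10 to Dpf2, at -1.12 ± 0.16 in D2 and 0.25 ± 0.05 in NSC. So it was for Rbbp7 to Rbbp4, which averaged -1.66 ± 0.05 in D2 and 0.09 ± 0.06 in NSC. Differences of at least 1 on the log2 scale were found for 9 pairs. The 3 pairs that overlapped were Phf1 to Mtf2, Cbx6 to Cbx2 and Phc2 to Phc1.

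For some genes the estimated transcript length, the abundance-weighted mean over isoforms that the deposited tables list, differed between the states. Smarca2 was 3140 to 3393 bases in D2 and 2025 to 2113 bases in NSC, and Dpf3 was 2104 to 2245 bases in D2 and 1325 to 1454 bases in NSC. Both genes thus had longer estimated transcripts in D2, and they are the 2 members whose log2 change differed by more than 0.5 between counts and TPM. Dpf3 had a log2 ratio of mean TPM of -1.40, against -0.74 in the count test. Ezh1 was 3273 to 3902 bases in D2 and 2352 to 2942 in NSC, and Smarce1 was 2104 to 2209 bases in D2 and 1647 to 1935 in NSC. Lengths did not overlap between the states for 13 of the 45 genes (28.9%), against 16.1% of all genes tested, and the sign of the change was the same on counts and TPM for all 45. Smarca4 was between 5613 and 5665 bases in D2 and between 5648 and 5683 bases in NSC. The tables used here give no value per isoform.

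**Figure D4:**
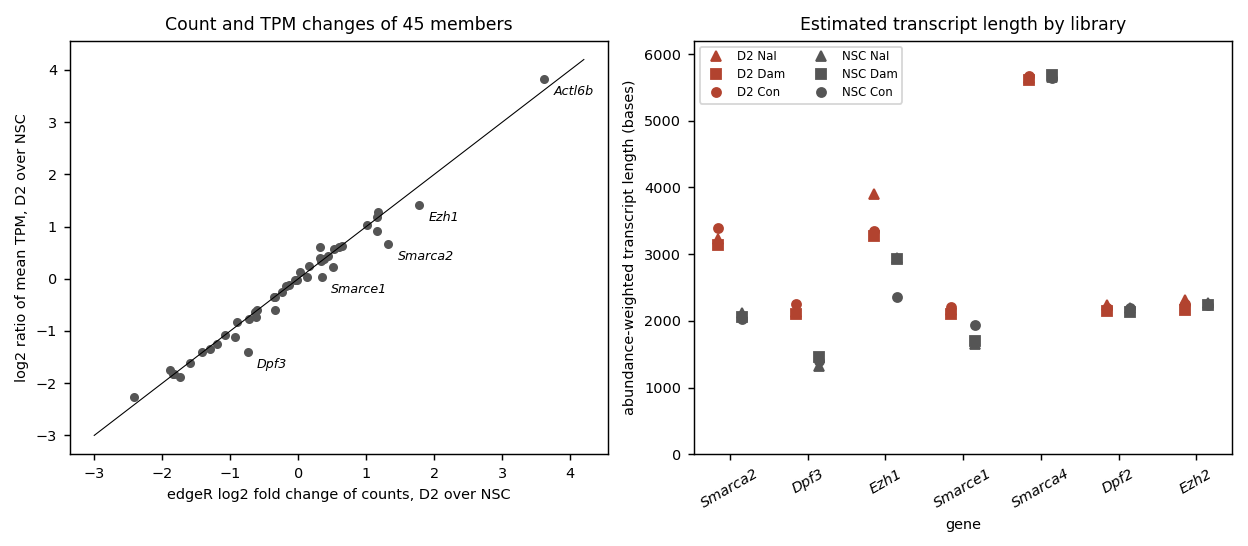
Left, the log2 ratio of mean TPM (y axis) against the edgeR log2 fold change of counts (x axis), D2 over NSC, for 45 genes, with the line of equality. Right, the estimated transcript length in bases per library for 7 genes, with D2 in red and NSC in grey; Smarca2 and Dpf3 are longer in all D2 libraries, and Smarca4, Dpf2 and Ezh2 lie nearly level.

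Genes related to the 3 complexes gave a background for these changes. Of 22 other Polycomb genes, 7 were higher and 14 lower in D2 (median log2 fold change -0.33). The MBT domain gene Scml2 averaged 1.22 ± 0.23 CPM in D2 and 7.73 ± 0.61 CPM in NSC (SD, n = 3 each; log2 fold change -2.63, SE 0.24), and Mga, of the PRC1 form with PCGF6, averaged 49.6 ± 7.18 CPM in D2 and 133.6 ± 1.67 CPM in NSC (log2 fold change -1.44, SE 0.08). Lcor (-1.99, SE 0.14), Asxl2 (-1.37, SE 0.06) and Bcor (-1.03, SE 0.07) were also lower, while Epop, a PRC2 cofactor, was higher (0.98, SE 0.11). Of 10 other BAF genes, 6 were higher and 1 lower (median 0.54), among them Bcl11b (log2 fold change 1.06, SE 0.13), Bcl11a (1.01, SE 0.20), Bicra (0.58, SE 0.07) and Bcl7a (0.55, SE 0.05). Of 27 remodellers of other families, 6 were higher and 14 lower (median -0.18). The ISWI ATPase gene Smarca5 averaged 93.0 ± 14.7 CPM in D2 and 426.9 ± 3.52 CPM in NSC (log2 fold change -2.21, SE 0.08), and its partner Baz1a (-2.21, SE 0.08) and Chd1 (-2.37, SE 0.07) were lower too. Chd3, an ATPase of the NuRD complex, was higher, at 104.0 ± 3.93 CPM in D2 and 31.4 ± 0.25 CPM in NSC (log2 fold change 1.73, SE 0.06). The 13 cell division genes had a median of -3.06, with Mki67 at 31.1 ± 9.44 CPM in D2 and 1518 ± 37.5 CPM in NSC.

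The ligands were compared with control over both states, and with each other. No member passed an adjusted p of 0.05 for naloxone against control (edgeR; background 0.0151% of all genes), for DAMGO against control (0.0151%) or for naloxone against DAMGO (0.0303%), and DESeq2 also called 0 in each. At an unadjusted p under 0.05, edgeR gave 1 member for naloxone (background 2.22%), 0 for DAMGO (2.4%) and 1 for naloxone against DAMGO (2.12%), and DESeq2 gave 1, 0 and 0. The member for naloxone was Pbrm1 (log2 fold change 0.26, SE 0.11, edgeR unadjusted p 0.0373, adjusted p 1), and that for naloxone against DAMGO was Arid1b (0.15, SE 0.07, edgeR adjusted p 1.00). For a typical member the 95% interval of the ligand log2 fold change reached 0.16 to either side (median over the 45 genes, naloxone and DAMGO alike). It is an interval for a single gene, while calls were adjusted over all genes, so effects larger than 0.16 could also go uncalled. With naloxone, Pbrm1 (0.26) and Pcgf5 (-0.35, SE 0.26) lay beyond 0.16 and were not called. The same held with DAMGO for Pcgf5 (-0.50, SE 0.27), Mtf2 (0.19, SE 0.10) and Eed (-0.17, SE 0.09).

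The Pbrm1 level differed among the D2 libraries beyond counting error. It had 80.1 CPM with naloxone, 63.6 CPM with DAMGO and 52.3 CPM in the control in D2, against 241.7, 231.9 and 239.7 CPM in NSC. Within D2 the log2 ratio to control was 0.61 (95% exact interval 0.45 to 0.78) for naloxone and 0.28 (0.11 to 0.46) for DAMGO, and within NSC it was 0.01 (-0.06 to 0.09) for naloxone and -0.05 (-0.13 to 0.04) for DAMGO. These intervals cover counting error between 2 libraries only, and the difference between the states was not tested. The naloxone call of Pbrm1 depended on the libraries fitted, since it passed without NSC control (log2 fold change 0.54, edgeR adjusted p 0.0016) and without NSC naloxone (0.51, edgeR adjusted p 0.047), fits that hold no naloxone and control pair in NSC, and stood at 0.07 without D2 control and 0.08 without D2 naloxone (edgeR adjusted p 1.00 for both). The adjusted p ranged from 0.0016 to 1.00 over all alternatives. Fibroblast markers summed to 10.04 CPM with naloxone, 10.1 CPM with DAMGO and 20.1 CPM in the control in D2, and to 10.06, 0.551 and 1.51 CPM in NSC. The 13 cell division genes summed to 531.5, 463.9 and 481.3 CPM in D2 in the same order of ligands. Among them Mki67 (41.1, 29.8 and 22.4 CPM), Rrm2 (45.01, 32.25 and 31.29 CPM) and Aurkb (15.12, 14.71 and 14.32 CPM) ranked the ligands as Pbrm1 did. Most of the 13 genes did not, such as Top2a (99.35, 79.9 and 81.91 CPM) and Ccna2 (45.13, 38.36 and 41.3 CPM). The part of these genes in the D2 ligand ratios was not tested.

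In D2 the naloxone interval lay above 0 for 5 of the 45 members and below 0 for 7, against 10.7% and 10.3% of all genes. The DAMGO interval in D2 lay above 0 for 4 and below 0 for 4, against 8.48% and 8.26% of all genes. In NSC the naloxone interval left out 0 for no member, against 4% of all genes above and 4.91% below. The DAMGO interval in NSC lay above 0 for 1, Suz12, and below 0 for 1, Smarcd1, against 3.59% and 4.19%. The difference between the states was not tested. Suz12 in D2 had 36.6 CPM with naloxone, 32.0 with DAMGO and 27.5 in the control, a log2 ratio of 0.41 (0.18 to 0.65) for naloxone and 0.22 (-0.02 to 0.47) for DAMGO. Pcgf5 in D2 had 13 counts with DAMGO against 43 in the control (log2 ratio -1.40, interval -2.54 to -0.60). Phf1 in D2 had 31 counts with naloxone, 33 with DAMGO and 55 in the control, and both its intervals hold 0. Both ligand libraries of D2 were at least 1.2-fold above the control for 1 of 45 members (2.22%), Pbrm1, and at least 1.2-fold below for 2 (4.44%), Phf1 and Pcgf5. The shares over all genes were 6.98% and 2.94%. In NSC no member met either condition, against 2.95% and 2.57% of all genes. Both ligand libraries share the same control, so the 2 ratios are not independent. Without the D2 control, the state comparison gave 15 members higher and 22 lower, with 9921 of 13210 genes called in either direction.

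**Figure D5:**
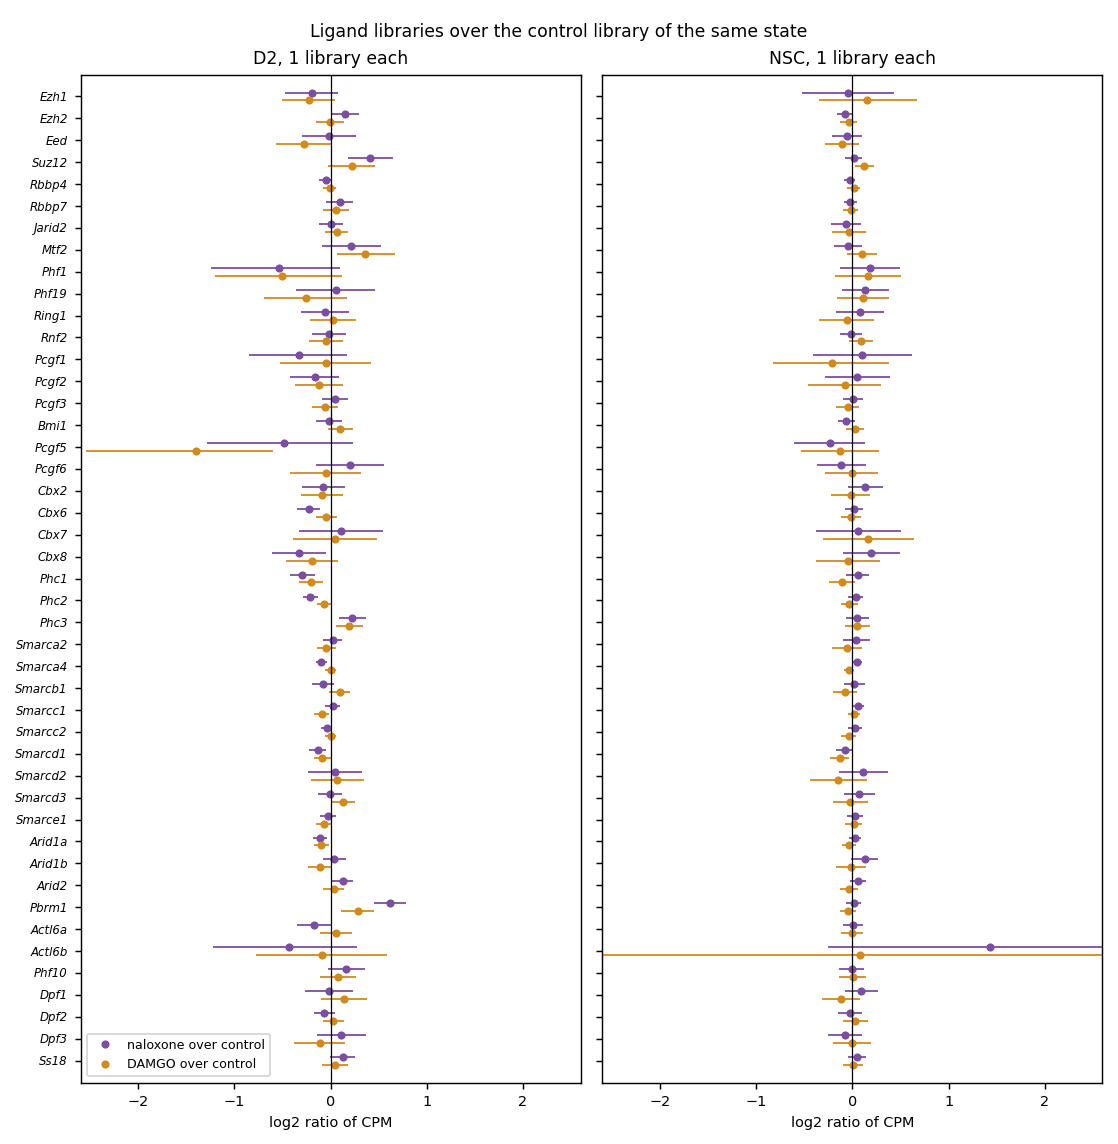
Log2 ratio of CPM (x axis) of the naloxone library (purple) and the DAMGO library (orange) over the control library of the same state, for each of the 45 genes (y axis), with 95% exact intervals of counting error as bars; D2 is on the left and NSC on the right. Pbrm1 and Suz12 lie right of 0 and Pcgf5 left of 0 in D2, and most NSC values lie close to 0. Actl6b with naloxone stands at 1.43 in NSC, and the intervals of Actl6b in NSC run past the axis.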

How the data were processed

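Per the labels, libraries were built from Trizol-extracted total RNA with a TruSeq RNA kit. Such libraries leave strand unmarked. The authors deposited per library an expected count, a TPM, an FPKM and a transcript length for each gene; the submitters' processing notes name Bowtie, RSEM and build mm10, and versions and annotation were not given in the sources used. Expected counts divide reads that fit several genes or isoforms: at a tolerance of 0.005, 20 members had a fractional count in some library and 9 in all 6. Members in exon overlap with another gene on either strand numbered 22. FPKM values deposited by the authors were not used. The authors' TPM values sum to an equal total in every library and were used for levels between genes.

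Symbols and coordinates came from GENCODE M21, which matched 28756 identifiers. Expected counts were rounded, TMM normalised and fitted in edgeR 4.0.16 (R 4.3.3; glmQLFit, glmQLFTest) with state and ligand as additive terms, for the 13216 genes averaging 10 or more counts over the libraries. The fit has 2 residual and 9.45 prior degrees of freedom, and a biological coefficient of variation of 0.0529. Ratios within a state used a prior count of 2 and exact binomial intervals at 95%, and paralogue ratios added 0.1 TPM. Intervals cover counting error only. Alternatives were DESeq2 1.42.0, limma 3.58.1 on log2(TPM + 1), other scalings and filters, no ligand term, and each library left out. The scripts were tested on simulated data.

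The members and lists were chosen with earlier results of these data known, although the rule that picks the members by symbol reads no value. Any member could be named. From each related list the rule took the 6 largest changes past the threshold with at least 5 CPM in a state, and sequences were those of the largest falls in the PRC2 core and in BAF. Ss18l1 followed this rule as well. Ezh2's promoter, the neuronal markers named and the ligand values singled out were chosen after they were seen. Marker lists covered neural stem cells, neurons, astrocytes, oligodendrocytes, microglia, fibroblasts, endothelial and pluripotent cells. Of 7 oligodendrocyte markers tested 6 were higher and 1 lower in D2, of 4 fibroblast markers 1 was higher and 0 lower, the endothelial marker tested did not pass, and the pluripotency marker tested was lower. Protein sequences were not used here.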

Additional observations from a re-analysis of the deposited data

How the results depend on the processing

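Over 13 alternative settings, 32 of the 39 state calls were tested and held in every one, Actl6b held in each but the filter of a mean of at least 50 counts, where it was not tested, 6 were lost in at least 1 (Cbx2, Cbx6, Cbx8, Pcgf1, Phc1 and Smarce1), 3 genes passed in at least 1 (Cbx7, Phc3 and Rbbp4), and 0 reversed. The counts of members were 15 to 18 higher and 20 to 23 lower, with DESeq2 at 15 and 20. Calls over all genes also moved with the setting, with 9096 of 13216 in DESeq2 and 10543 of 13216 in the main fit. The number of members called for naloxone ranged from 0 to 1 when each library was left out, and it was 0 under the settings that kept all 6 libraries and the ligand term. Over all genes the naloxone calls ranged from 0 to 127, the DAMGO calls from 0 to 160 and those of naloxone against DAMGO from 0 to 53, the largest naloxone and DAMGO counts arising without NSC control; without the low-count filter they were 45, 83 and 53. The cause was not tested. Scaling moved the median of all genes by at most 0.0107 on the log2 scale. The ratio of Actl6b to Actl6a differed by 3.32 with 1 TPM added, against 4.91. Depth limits Actl6b, Pcgf5 and Phf1, which have 13 to 55 counts in each D2 library. The labels carry no replicate numbers to pair libraries by. The additive fit compares the states within each ligand and the ligands within each state. Without the ligand term, 18 members were higher and 22 lower, and 10710 of 13216 genes were called in either direction.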
